A study of Mus musculus with 8 samples.

Results

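The levels of 10 genes used by thymocytes and T cells, Tcf7, Rag1, Rag2, Lck, Ptcra, Cd3e, Cd4, Cd8a, Cd8b1 and Dntt, were followed through bulk RNA-seq libraries of mouse fetal lung. The genes were picked by name from the 55385 gene IDs of the count files, and each symbol matched 1 ID of the GENCODE M21 annotation on GRCm38. Whole-lung tissue came from C57BL/6 fetuses at E18.5, with 4 control lungs and 4 lungs after tracheal occlusion (TO), in which the trachea had been tied through the uterine wall 2 days before collection so that lung fluid was retained. The ligature of this model also takes in a carotid artery and a jugular vein, the dam receives progesterone, and the labels do not say whether control fetuses had surgery. The lungs were not sorted, so a change in the number of T cells and a change in RNA per T cell cannot be told apart in these samples. Nothing in the labels says which fetuses shared a dam, and p-values measure the spread between these lungs.

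Thymocytes build an antigen receptor in steps that these genes mark. Tcf7 encodes TCF-1, the transcription factor that commits progenitors to the T lineage, and Rag1 and Rag2 encode the recombinase that joins receptor gene segments. Ptcra encodes the chain that pairs with a newly made beta chain, Cd3e a signalling subunit of the receptor, Lck the kinase that starts its signal, and Cd4, Cd8a and Cd8b1 the coreceptors of double-positive thymocytes and mature T cells. Dntt encodes terminal transferase, which adds nucleotides at receptor joins and is scarce in fetal thymocytes. In the fetus most of this happens in the thymus, and the lung before birth holds few T cells, while Tcf7 is also used by innate lymphoid and by some non-lymphoid fetal cells.

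Read pairs counted on genes numbered between 22822261 and 35002061 in 7 libraries, called deep here, and 270078 in TO 1. Levels are in CPM, read pairs on a gene scaled to a common library size, with the TMM factors of edgeR over all 8 libraries. A count of 0 allows a level of up to 3 reads. Without the TMM factors this is 0.0857 to 0.131 CPM in the deep libraries and 11.1 CPM in TO 1. With its factor, 3 reads in TO 1 are 10.3 CPM and 1 read is worth 3.43 CPM. These limits, the exact 95% Poisson intervals given for TO 1 and the intervals of ratios and shares cover counting error only, as the reads carried no molecular identifiers. TO 1 also stood apart in content, with keratinocyte genes such as Krt1 at 390 reads, 1339 CPM, against 0.323 to 1.36 CPM in the deep libraries. Each result is therefore given for the deep libraries first and for TO 1 separately.

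Letters before the gene starts are shown because most of the genes had their highest levels in the same pair of libraries. RefSeq (GRCm38.p6) gave a window of 250 bases before the start for 8 of the 10 genes, and Cd4 and Cd8b1 had none. The windows were searched on both strands for 4 motifs. An E-box, which the E proteins of lymphocyte development bind, was searched as CAGNTG. The core of sites bound by TCF-1, the Tcf7 product, was searched as CTTTGT. The core of sites for RUNX factors was searched as TGTGGT, and a site for GATA factors as AGATAA. Matches are in capitals, and a match read on the other strand appears as its reverse complement. Of the E-boxes, the form with C in the middle reads the same on both strands, and the third E-box of Rag1 shares its last 2 letters with a RUNX core.
Rag1, chr2:101649533-101649782, minus strand: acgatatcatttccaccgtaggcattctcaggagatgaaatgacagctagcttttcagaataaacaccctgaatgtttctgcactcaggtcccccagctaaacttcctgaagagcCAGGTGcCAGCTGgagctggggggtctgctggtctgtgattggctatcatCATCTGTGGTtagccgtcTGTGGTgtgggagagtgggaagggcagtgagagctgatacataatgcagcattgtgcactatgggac
Rag2, chr2:101624462-101624711, plus strand: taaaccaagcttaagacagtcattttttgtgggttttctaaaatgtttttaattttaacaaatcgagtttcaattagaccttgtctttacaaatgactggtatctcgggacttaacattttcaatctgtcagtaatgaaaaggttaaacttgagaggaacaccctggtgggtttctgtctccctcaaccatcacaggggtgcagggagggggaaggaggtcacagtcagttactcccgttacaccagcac
Ptcra, chr17:46763713-46763962, minus strand: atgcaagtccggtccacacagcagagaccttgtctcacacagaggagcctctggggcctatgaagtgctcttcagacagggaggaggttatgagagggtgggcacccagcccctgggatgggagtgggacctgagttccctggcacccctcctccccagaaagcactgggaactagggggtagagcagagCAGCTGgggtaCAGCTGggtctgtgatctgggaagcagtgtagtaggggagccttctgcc
Lck, the start within the gene, chr4:129558373-129558622, minus strand: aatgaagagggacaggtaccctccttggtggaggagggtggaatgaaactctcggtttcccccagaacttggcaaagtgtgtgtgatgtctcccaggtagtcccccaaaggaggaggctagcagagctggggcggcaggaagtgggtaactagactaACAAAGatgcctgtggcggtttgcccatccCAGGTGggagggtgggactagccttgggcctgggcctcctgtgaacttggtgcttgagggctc
The Rag1 window held 3 E-boxes and 2 RUNX cores, and that of Ptcra held 2 E-boxes. The Lck window at the inner start held 1 E-box and 1 TCF-1 core. None of the 4 motifs occurred in the windows of Rag2, Cd3e or Cd8a. Counting 1 window per gene, the E-box occurred in 3 of the 8 genes and in 44.5% of 27025 genes, and the RUNX core in 2 of 8 and in 14.2%. The E-box genes were Rag1, Ptcra and Tcf7, whose window at chr11:52283015-52283264 is not shown and held 1 E-box. Whether that Tcf7 stretch is itself transcribed or coding from a start further out was not tested. The GATA site occurred in 1 of 8 and in 10.3%, and the TCF-1 core in 0 of 8 and in 16.5%. For Lck the window counted was that of the outer start, chr4:129573642-129573891, which is not shown and held 1 RUNX core. The matches of its inner start are not in these counts. These matches describe the letters and were not tested for binding.

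Only Tcf7 and Lck had 5 or more reads in each deep library. Tcf7 (ENSMUSG00000000782.16, chr11:52252371-52283014) was at 51.4, 47.4, 32.3 and 40.1 CPM in controls 1 to 4 and at 51.3, 33.7 and 40.7 CPM in TO 2, TO 3 and TO 4, from 815 to 1774 reads. Control and TO lungs covered the same range, with the lowest values in control 3 and TO 3. In the 6 libraries that the study analysed (controls 1, 2 and 4 and TO 2, 3 and 4), the mean of Tcf7 in TO lungs was 41.9 ± 8.87 CPM (SD, n = 3), and that of control lungs was 46.3 ± 5.74 CPM (SD, n = 3). The log2 fold change, TO over control, was -0.14 (standard error 0.17, adjusted p = 0.952, quasi-likelihood test of edgeR, adjusted by Benjamini-Hochberg over every gene tested). It was 0.0022 without TO 3 and 0.81 in all 8 libraries, which add control 3 and TO 1.

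Lck (ENSMUSG00000000409.14, chr4:129548344-129573641) was at 1.93, 2.44, 1.48 and 2.31 CPM in controls 1 to 4 and at 1.85, 3.88 and 2.84 CPM in TO 2, 3 and 4, from 44 to 100 reads. TO 3 and TO 4 were above every control, and TO 2 was below 3 of them. The log2 fold change in the 6 libraries was 0.36 (standard error 0.38, adjusted p = 0.939 from edgeR). Counted on the first strand column alone it was 0.78, and on the second alone -0.035. The first column held 49.9% to 50.1% of the reads of both columns in each library, so the reads carry no strand information. These 2 values come from parts of the same Lck reads and do not show a difference between strands.

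Per kilobase of exon, Tcf7 had the highest level of the 10 genes, with a median of 15.5 CPM per kb over the deep libraries and a range of 12.3 to 19.6. Lck followed at 0.787 CPM per kb, from 0.504 to 1.33, with no overlap with Tcf7. Cd4 at 0.0987, Rag1 at 0.0774, Cd8a at 0.0222 and Rag2 at 0.0128 CPM per kb came next in the order of medians. Their ranges overlapped, and Rag1 at its highest, 1.43 CPM per kb, reached above Lck at its highest. Ptcra, Cd3e, Cd8b1 and Dntt had medians of 0.

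The recombinase genes varied far more between lungs than Tcf7 did. Rag1 (ENSMUSG00000061311.6, chr2:101638282-101649501) was at 0.350, 1.76, 0.0336 and 0.283 CPM in controls 1 to 4, from 8, 54, 1 and 7 reads. In the deep TO lungs it was at 1.36, 9.46 and 0.512 CPM in TO 2, TO 3 and TO 4, from 47, 229 and 18 reads. TO 3 was above all other deep libraries, while TO 2 and TO 4 lay below control 2. Rag2 (ENSMUSG00000032864.4, chr2:101624718-101632529), its partner next to it on the chromosome, had 1, 6, 0 and 1 reads in controls 1 to 4 and 5, 16 and 0 reads in TO 2, 3 and 4. Its highest level was again in TO 3, at 0.661 CPM, followed by control 2 at 0.195 CPM. Exons of both genes overlap the gene B230118H07Rik, over 1.21% of the exon bases of Rag1 and 6.07% of those of Rag2, and reads in such a stretch are not counted for either gene in the unstranded column.

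The coreceptor genes were also highest in TO 3 among the deep libraries, and the library that came next differed between them. Cd8a (ENSMUSG00000053977.13, chr6:71373427-71379173) had 4, 18, 1 and 2 reads in controls 1 to 4 and 1, 69 and 0 reads in TO 2, 3 and 4, and TO 3 at 2.85 CPM was followed by control 2 at 0.585 CPM. Cd8b1 (ENSMUSG00000053044.8, chr6:71322788-71337494), which encodes the other chain of the coreceptor, had 0, 0, 1 and 0 reads in the controls and 11, 41 and 0 reads in TO 2, 3 and 4. Its level in TO 3 was 1.69 CPM, and TO 2 followed at 0.318 CPM. Cd4 (ENSMUSG00000023274.14, chr6:124864692-124888221) had 2, 0, 13 and 3 reads in controls 1 to 4, which is 0.0876, 0, 0.436 and 0.121 CPM, and 18, 55 and 14 reads in TO 2, 3 and 4, which is 0.520, 2.27 and 0.398 CPM. TO lungs lay above controls 1, 2 and 4, and control 3 lay between TO 4 and TO 2.

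The genes of the receptor itself were at or near 0 in most lungs. Ptcra (ENSMUSG00000036858.8, chr17:46755663-46763712) had 0 reads in all 4 controls and in TO 4, and 19 and 14 reads in TO 2 and TO 3, 0.549 and 0.579 CPM. Cd3e (ENSMUSG00000032093.7, chr9:44998740-45009627) had 20 reads in TO 3, 0.826 CPM, 5 in control 2 and 0 in the other deep libraries. A stretch of 135 bases, 3.31% of its exon bases, overlaps the antisense gene Gm48719, where the unstranded column drops reads. Summed over both strand columns, the count of Cd3e was 13 in TO 2, 7 in control 2 and again 20 in TO 3. In TO 2 the unstranded column had 0 reads of Cd3e. Reads that the sum adds touch the shared stretch and, without strand information, cannot be assigned to Cd3e or to Gm48719. Dntt (ENSMUSG00000025014.13, chr19:41029275-41059525) had 5 reads in control 1, 1 read in TO 4 and 0 elsewhere, TO 1 included, so that its level was not above 0.219 CPM in any deep library. The plot of the 10 genes by library shows these levels with the limit that 3 reads set.

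**Figure D1:**
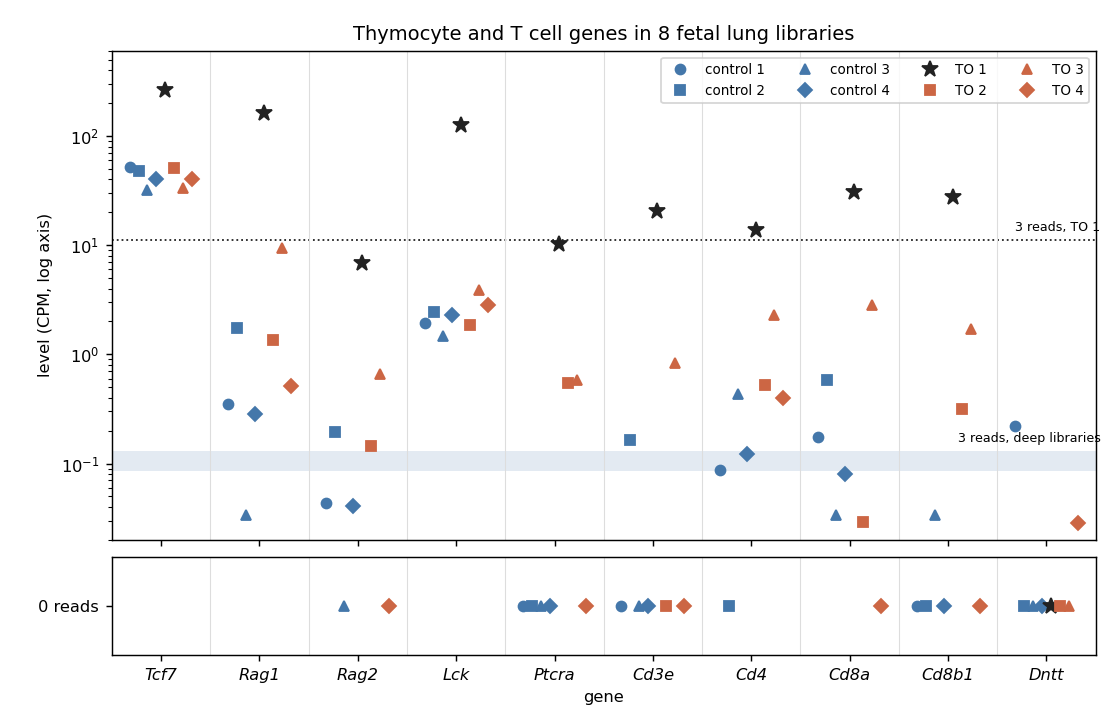
Level of each of the 10 genes in each library, in CPM on a log axis, with libraries at 0 reads in the strip below. Blue marks are controls, orange marks TO lungs and the black star TO 1. The shaded band and the dotted line give the level of 3 reads without the TMM factors, which the marks include. Tcf7 sits between 32.3 and 51.4 CPM in the deep libraries, TO 3 is the highest deep library for 8 genes, and TO 1 is the highest of all for 9.

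In TO 3 the highest level of the 7 deep libraries was reached by 8 of the 10 genes, all but Tcf7 and Dntt, and by 15.2% of the 22545 genes tested in all 8 libraries. Summed over the 9 genes other than Tcf7, the level was 22.2 CPM in TO 3, 4.77 CPM in TO 2 and 3.78 CPM in TO 4, against 2.80, 5.14, 2.01 and 2.83 CPM in controls 1 to 4. Control 2 thus lay above TO 2 and TO 4. TO 3 was also the lung with the highest summed level of 10 interferon-stimulated genes, at 416 CPM. Control 3 followed at 228 CPM, and the other deep libraries had 48.9 to 120 CPM. For 10 cell cycle genes TO 3, at 500.4 CPM, was near the lowest, where control 3 had 470 CPM. The file names of TO 3 and control 3 carry the same specimen number, 3604, which no other library has. What this number stands for is not given. The summed level of 12 macrophage and monocyte genes was highest in TO 3 as well, at 580 CPM against 316 to 553 CPM in the other deep libraries and with 6 of the 12 genes highest there, and so was Ptprc, the pan-leukocyte gene of CD45, at 25.5 CPM against 7.80 to 18.2 CPM. The part of these in the result was not tested.

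Of the 10 genes, 5 passed the filter of 5 reads in 3 or more libraries in the 6 libraries, and 0 of them were called at an adjusted p under 0.1, where edgeR called 0% of the 21859 genes tested. Of these 5 genes 1 had an unadjusted p under 0.05, against 1123 genes in all (5.14%), and limma-voom called 0 of the 5 and 0 genes in all. DESeq2 called 44 genes and none of these, and it gave Rag2 no adjusted p. Cd4 had the largest log2 fold change of the 5, 3.88 (standard error 1.21, unadjusted p = 0.0106 and adjusted p = 0.907 from edgeR). It passed the filter through its TO lungs alone, as no control of the 6 had 5 reads, so that it had to differ. Cd4 was the only 1 of the 5 with every TO lung above every control, and 5.06% of all genes tested had this order. Cd4 was not tested without TO 3 in the 6 libraries, and with control 3 added and TO 3 left out its log2 fold change was 1.48 (standard error 1.37). Over the alternatives tried, the adjusted p of Cd4 ran from 0.193 in DESeq2 to 0.99999.

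The log2 fold change of Rag1 in the 6 libraries was 2.19 (standard error 1.07, adjusted p = 0.907 from edgeR), with a mean of 3.78 ± 4.94 CPM (SD, n = 3) for TO lungs and one of 0.796 ± 0.832 CPM (SD, n = 3) for controls. It was 0.23 (standard error 0.93) without TO 3. The 6 libraries hold TO 3 but not control 3, the control with the same specimen number in its file name. Rag2 had one of 1.41 (standard error 1.56, adjusted p = 0.941 from edgeR). The median of the 5 genes was 1.41, beside -0.0045 over all genes tested, and it was 0.092 without TO 3. The genes that passed the filter are those with enough reads in some group, so this median does not stand for all 10.

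With control 3 added, 5 of the 10 genes were again tested and 0 called, where edgeR called 0% of 22539 genes, and 2 had an unadjusted p under 0.05, against 451 of the 22539 genes. The log2 fold change was 2.61 (standard error 1.13) for Rag1, 2.67 (standard error 1.15) for Cd4, 0.49 (standard error 0.37) for Lck and -0.031 (standard error 0.20) for Tcf7, each with an adjusted p of 0.9998 from edgeR. No gene of the 5 had every TO lung above every control lung, where 2.26% of all genes tested did. In all 8 libraries, 8 genes passed the filter and 0 were called, where edgeR called 0% of 22545 genes. All 8 had a log2 fold change above 0, against 46.8% of all genes tested. Of the 8, 5 had an unadjusted p under 0.05 from edgeR, against 530 genes in all (2.35%). TO 1 had the highest level for each of the 8. Cd8b1 passed the filter through TO lungs alone, and Cd3e and Cd8a entered the test only with TO 1 added, so the shared direction and the median rest in part on genes that entered through TO lungs. The median was 4.07, beside -0.018 over all genes tested and 1.83 for the 5 genes tested in the deep libraries. Cd8b1 had 8.42 (standard error 2.33) and Cd3e 6.20 (standard error 2.62), fitted values that rest on controls with 1 read and with 5 reads in all.

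**Figure D2:**
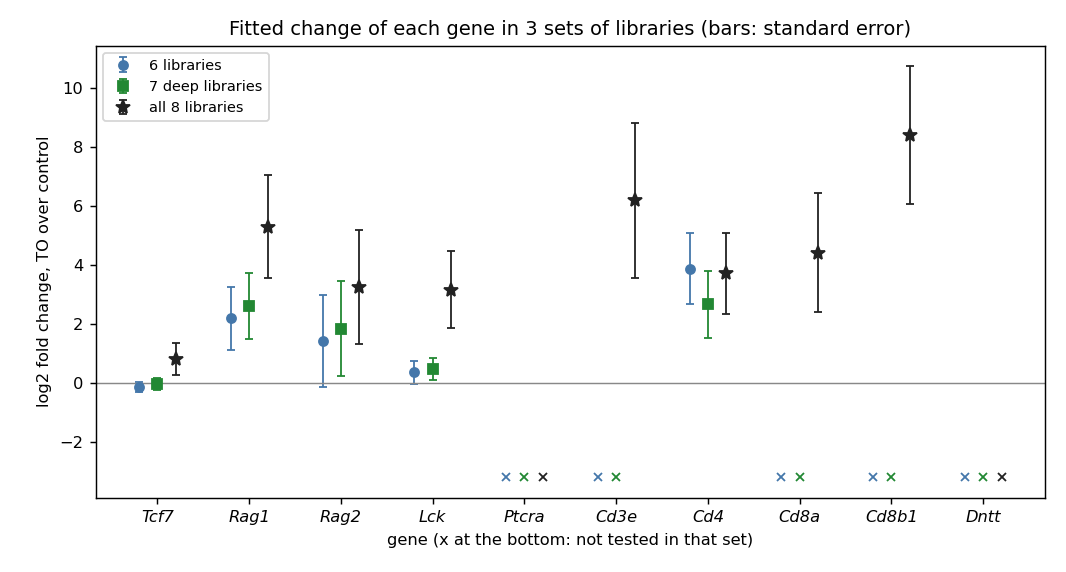
Log2 fold change of each gene, TO over control, from edgeR with its standard error, in the 6 libraries of the study, in the 7 deep libraries and in all 8; a cross marks a gene that was not tested in that set. The values of Rag1 are 2.19, 2.61 and 5.31, those of Tcf7 -0.14, -0.031 and 0.81, and adding TO 1 brings Cd3e, Cd8a and Cd8b1 into the test.

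TO 1 had reads of 9 of the 10 genes at levels far above those of the deep libraries. Tcf7 had 77 reads, 264 CPM (Poisson interval 209 to 330), Rag1 47 reads, 161 CPM (119 to 215), and Lck 37 reads, 127 CPM (89.5 to 175). The interval of each lay above the level in every deep library. At the share of reads that TO 3 had, TO 1 would have held 8.99 reads of Tcf7, 2.52 of Rag1 and 1.04 of Lck. Against the highest deep library, the level was 17.1 times as high for Rag1 (interval of the ratio 12.2 to 23.4) and 32.7 times for Lck (21.7 to 48.3), while for Tcf7 it was 5.14 times (4.03 to 6.48).

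The coreceptor and receptor genes were found in TO 1 with few reads each. Cd8a had 9 reads, 30.9 CPM, and Cd8b1 8 reads, 27.5 CPM, 10.8 times (interval 4.76 to 21.8) and 16.2 times (6.56 to 35.0) the level of TO 3. Cd3e had 6 reads, 20.6 CPM, and Cd4 4 reads, 13.7 CPM, 24.9 times (8.19 to 64.4) and 6.04 times (1.59 to 16.4) that of TO 3. Ptcra had 3 reads, with a ratio of 17.8 (3.28 to 63.8), and Rag2 2 reads, with a ratio of 10.4 (1.16 to 44.2). Dntt had 0 reads. A gene with a single read in TO 1 stands above most low genes of the deep libraries, and 20.2% of the 22545 genes tested had their highest level there.

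Within the 9 genes other than Tcf7, TO 1 held 116 reads and TO 3 538. Rag1 made up 40.5% of them in TO 1 (Wilson 95% interval 32.0% to 49.6%) and 42.6% in TO 3 (38.5% to 46.8%), so that the intervals overlapped. Lck made up 31.9% (24.1% to 40.8%) in TO 1 and 17.5% (14.5% to 20.9%) in TO 3, and these intervals, of a single library each, did not overlap. Cd4 had 3.45% (1.35% to 8.53%) and 10.2% (7.94% to 13.1%), and Cd8a 7.76% (4.14% to 14.1%) and 12.8% (10.3% to 15.9%). Both pairs of intervals overlapped, as did those of Cd8b1, Cd3e, Ptcra and Rag2. These shares compare the reads of 2 libraries, with no replicate and no test.

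Segment genes of the T cell receptor loci, which the recombinase joins, showed the same pair of libraries. The annotation holds 226 such genes, whose reads here cannot tell a joined transcript from one of unjoined DNA. Over all of them the deep libraries had 1.75 to 3.03 CPM in the controls, 3.01 CPM in TO 2, 3.78 CPM in TO 4 and 12.7 CPM in TO 3, and TO 1 had 209 CPM from 61 reads. The beta locus led both, with 6.94 CPM in TO 3 and 137 CPM in TO 1, against 0.0438 to 1.04 CPM in the other deep libraries.

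Its constant genes Trbc1 and Trbc2 (chr6:41538218-41539881 and chr6:41546730-41548352) had 49 and 60 reads in TO 3 and 17 and 15 in TO 1. In controls 1 to 4 Trbc1 had 0, 6, 0 and 3 reads and Trbc2 1, 13, 0 and 0. In TO 2 and TO 4 Trbc1 had 25 and 1 reads and Trbc2 4 and 7. The log2 fold change in the 6 libraries was 3.02 for Trbc1 (standard error 1.42) and 2.47 for Trbc2 (standard error 1.499), each with an adjusted p of 0.907 from edgeR. Variable genes of the beta locus had 36 reads over 9 genes in TO 3 and 7 reads over 6 genes in TO 1, against 0, 2, 0 and 0 reads in the controls, 0 in TO 2 and 7 in TO 4, where all 7 were of Trbv13-2.

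At the alpha locus TO 3 was again the highest deep library, at 2.81 CPM, but TO 4 at 2.56 CPM and control 4 at 2.43 CPM were close to it, and TO 1 was at 10.3 CPM from 3 reads. Trac (chr14:54220521-54224206), its constant gene, was at 0.613, 0.423, 0.973 and 2.02 CPM in controls 1 to 4 and at 1.13, 2.44 and 2.39 CPM in TO 2, 3 and 4, so that TO 3, TO 4 and control 4 were close to each other, and TO 1 had 1 read, 3.43 CPM. Trdc (chr14:54142851-54148868), the constant gene of the delta locus, had 13, 11, 15 and 2 reads in the controls, 0, 22 and 7 in TO 2, 3 and 4 and 4 in TO 1. The gamma locus was at 1.74 CPM in TO 3, at 44.6 CPM in TO 1 and between 0.175 and 0.723 CPM in the other deep libraries.

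**Figure D3:**
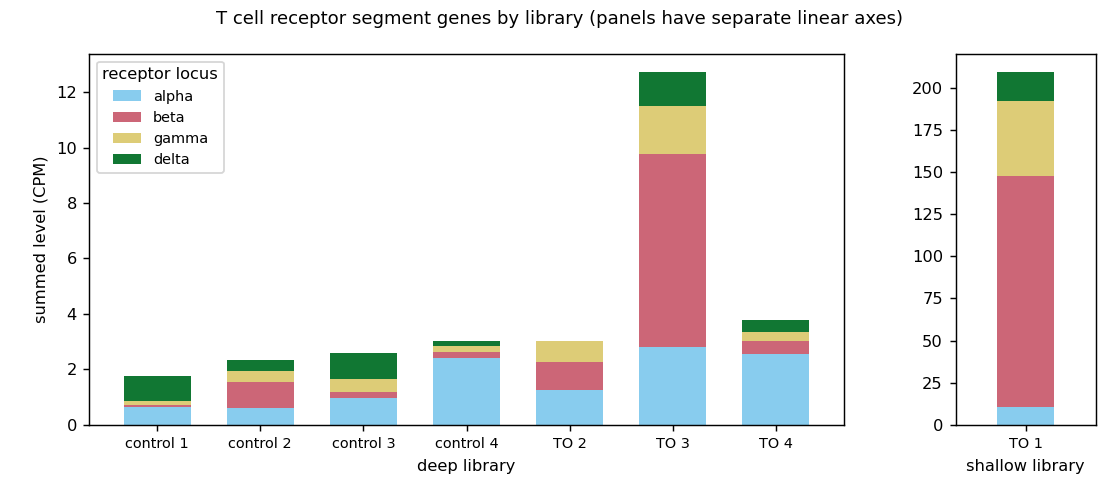
Summed level of the T cell receptor segment genes of each locus, in CPM, as stacked bars for the 7 deep libraries (left) and for TO 1 (right), on separate linear axes that start at 0. The sum is 12.7 CPM in TO 3 and 1.75 to 3.78 CPM in the other deep libraries, and 209 CPM in TO 1, with the beta locus the largest part of both.

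Other genes of the receptor complex and its first signalling steps were listed as 24 genes, of which 19 were tested in the 6 libraries. Of these, 16 had a log2 fold change above 0 and 3 below, 0 were called, and the median was 0.45. The most abundant were Fyn, a kinase found in many cell types, at -0.14 (standard error 0.15), the adaptor Lcp2 at 0.30 (standard error 0.24) and Trac at 0.96 (standard error 0.65). Summed over the list the deep libraries had 78.5 to 86.9 CPM, most of it Fyn, and TO 1 had 450 CPM (Poisson interval 376 to 534). In TO 1 19 of the 24 genes had their highest level, with 25 reads of Cd3g and 9 of Cd3d, and in TO 3 15 had the highest level of the deep libraries.

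A list of 29 regulators of the T lineage and thymocyte stage genes held many genes that are also active outside T cells. All 29 were tested in the 6 libraries, 13 were above 0 and 16 below, 0 were called and the median was -0.020. Ets1 was at -0.13 (standard error 0.16), Tcf12, the E protein HEB, at -0.042 (standard error 0.11), and Notch3 at -0.020 (standard error 0.13). The list summed to 1296 to 1482 CPM in the deep libraries and to 2036 CPM in TO 1. TO 1 had the highest level for 17 of its genes, among them Thy1 (39 reads, 134 CPM) and Il2ra (16 reads, 54.9 CPM).

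Markers of thymic epithelium, the stroma in which thymocytes mature, were also at higher levels in TO 1 than in the deep libraries. The list of 10 genes summed to 330 CPM there (Poisson interval 267 to 403) and to 55.7 to 74.0 CPM in the deep libraries, of which Dll4, Ccl25 and Tbata, genes also read in other cells, made up most. TO 1 had the highest level for 8 of the 10, with 38 reads of the thymus protease gene Prss16, 130 CPM, against 0.806 to 2.52 CPM elsewhere. Foxn1, the defining transcription factor, had 2 reads in TO 1, 6.87 CPM, against 0.0876 CPM in control 1, 0.101 CPM in control 3 and 0 reads in the other libraries, a ratio to control 3 of 68.2 with an interval of 5.70 to 595. In TO 3 the list summed to 74.0 CPM, beside 73.3 CPM in control 3, and Foxn1 had 0 reads. The part of thymic tissue in these levels was not tested.

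Lists of other leukocytes stood at 0.518 to 7.69 times their deep median in TO 1. The 9 genes other than Tcf7 stood at 105 times, but all 10 genes, with the abundant Tcf7, at 12.6 times. The receptor complex list stood at 5.45 times and that of T lineage regulators at 1.44 times, both below the 7.69 times of NK and innate lymphoid genes. The most abundant genes weigh most in such sums, so these ratios do not rank the cell types. The summed level was 72.1 CPM for 17 genes of NK and innate lymphoid cells, against 6.91 to 9.75 CPM in the deep libraries, with 12 of its 21 reads from Gzma. Of its 17 genes 11 had 0 reads in TO 1, among them Eomes, which had 0 reads in every library, and Ncr1, which had 4 reads in control 1 alone, so that these zeros give no contrast with the deep libraries at the depth of TO 1. It was 92.7 CPM against 33.7 to 49.1 CPM for 15 B cell genes, of which 6 had their highest level in TO 1, with Ighm at 9 reads, 30.9 CPM (Poisson interval 14.1 to 58.7), against at most 4.79 CPM. The 12 pan-leukocyte genes had 567 CPM against 257 to 351 CPM. Macrophage genes were at 299 CPM (Poisson interval 239 to 368), against 316 to 580 CPM in the deep libraries. Dendritic cell genes were at 27.5 CPM from 8 reads (11.9 to 54.1), against 48.7 to 61.1 CPM. Both intervals reached into the range of the deep libraries.

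Genes of tissues other than lymphoid ones also had high levels in TO 1. A list of 8 genes of stratified epidermis, chosen after their values were seen, summed to 3540 CPM there and to 2.11 to 10.7 CPM in the deep libraries. Of 9396 genes with 5 or more reads in TO 1, 81 (0.862%) were over 10 times as high as in any deep library, and the first 4 in rank were the epidermal genes Hrnr, Krt1, Krt77 and Calm4. In this order Lck ranked 34, Cd3e 41, Rag1 53, Cd8b1 55, Cd8a 74 and Tcf7 117. Lung identity genes such as Sftpc and Sftpb summed to 5933 CPM in TO 1 and to 7777 to 17230 CPM in the deep libraries, and 8 cardiomyocyte genes to 7667 CPM against 519 to 6310 CPM. The source of these reads, and whether it is shared with the thymocyte genes, was not tested.

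**Figure D4:**
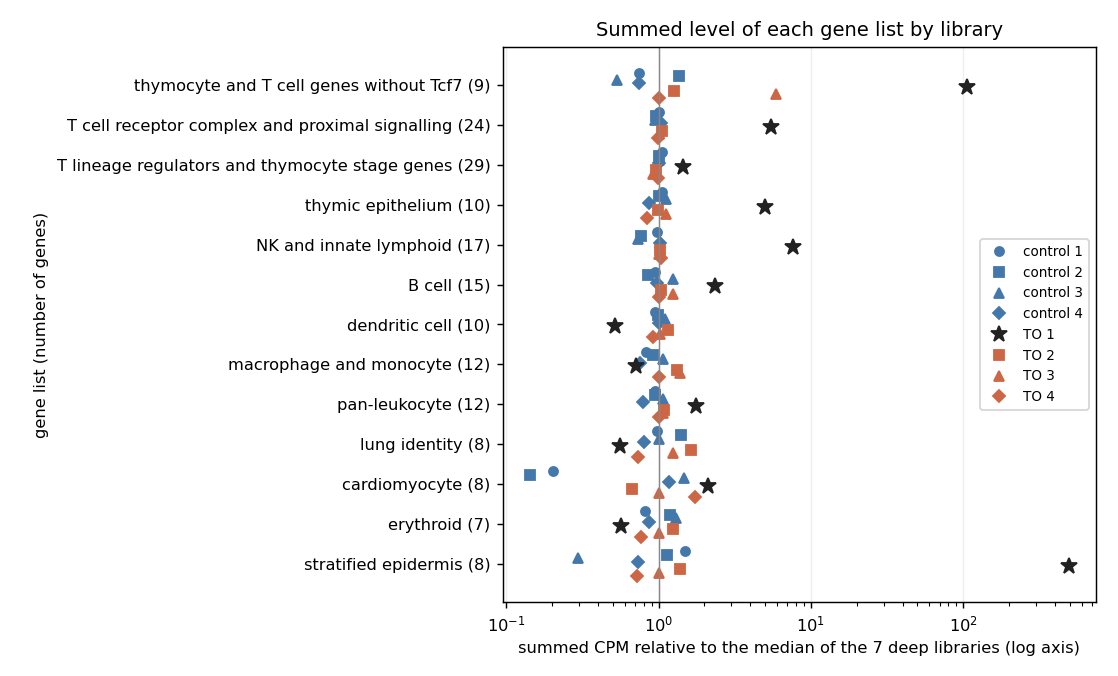
Summed CPM of each gene list in each library, relative to the median of the 7 deep libraries, on a log axis; the number of genes is in brackets, the line marks 1 and the black star is TO 1. The 9 genes without Tcf7 are at 5.88 times the median in TO 3 and 105 times in TO 1, where the epidermal list is at 492 times, the thymic epithelium list at 5.01 times and the macrophage list at 0.712 times. With Tcf7, the 10 genes (not plotted) are at 1.06 times in TO 3 and 12.6 times in TO 1. The other lists keep their most abundant genes.

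The genes whose level moved most like the 10 genes across the deep libraries included none of the T cell lists. The mean log2 CPM of the 10 genes was 0.91 in TO 3, -0.83 in TO 2, -1.65 in TO 4 and between -1.94 and -1.14 in the controls. Among 15895 genes with a mean of 1 CPM or more, the highest Pearson r with this mean over 7 libraries was that of Mbl1, a mannose-binding lectin gene, at 0.97. Gm19705, Elf5, Akr1c19, Rmdn2, Dnajc1, 4933421O10Rik, Lipe, Catspere2 and Rps6kb1 followed, with r from 0.96 to 0.93. These are descriptions across 7 points, among which TO 3 stands apart. Elf5, an epithelial transcription factor, was at 117 CPM in TO 3 and 81.0 to 98.0 CPM in the other deep libraries. In TO 1, which the measure did not use, Mbl1 had 0 reads and Elf5 was at 37.8 CPM, below each deep library.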

How the data were processed

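RNA of whole lungs from 4 control and 4 TO fetuses at E18.5 was made into NexteraXT libraries and sequenced as paired reads by the authors. STAR was their aligner and GRCm38 their genome, and what they deposited are counts, whole read pairs for each gene with no normalization. The unstranded column was used. No version of STAR or annotation is given in the sources used here, and 55144 of 55385 gene IDs matched GENCODE M21 without the version. A gene was tested if 3 or more libraries had 5 reads of it, in R 4.3.3 with edgeR 4.0.16 (quasi-likelihood test, TMM, Benjamini-Hochberg adjustment, threshold 0.1), with DESeq2 1.42.0 and limma 3.58.1 as alternatives. Log2 CPM used a prior count of 2. Figures and tables of levels were made in Python 3.11.15. The first comparison used the 3 control and 3 TO lungs named in the study's figure, and the 7 deep and all 8 libraries followed. Genes named from a list were its 3 most abundant and any called, and others were chosen after their values were seen. The genes and lists were chosen with earlier results of these data known. The fit was tested on simulated data.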

Additional observations from a re-analysis of the deposited data

Results flagged for a closer look

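In each group of 4 lungs a library was marked where its gap to the nearest other lung, as a share of the whole range of the group, passed the 95% critical value of Dixon. For normally distributed values chance marks about 1 in 20 groups, and 13 of 20 were marked here. That rate does not hold for counts at or near 0, where a group with a single lung above 0 is always marked. The 13 marks can therefore not be set against it. In 9 of them the library was TO 1, the library with 270078 read pairs, at 264 CPM for Tcf7, 161 CPM for Rag1, 6.87 CPM for Rag2, 127 CPM for Lck, 10.3 CPM for Ptcra, 20.6 CPM for Cd3e, 13.7 CPM for Cd4, 30.9 CPM for Cd8a and 27.5 CPM for Cd8b1. The other 4 are single lungs with 1 to 5 reads in a group otherwise at 0, namely Cd3e in control 2 at 0.163 CPM, Cd8b1 in control 3 at 0.0336 CPM, and Dntt in control 1 at 0.219 CPM and in TO 4 at 0.0284 CPM. TO 3 was not marked for any of the 10 genes, and for 9 of them TO 1 lies above it in the same group.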

How the results depend on the processing

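None of the 10 genes was called in any alternative in which it was tested, and DESeq2 gave Rag2 no adjusted p. Genes called over the whole table, 0 at first, numbered 44 with DESeq2, 40 when every gene with a read was tested, 1 with the specimen number of the file names as a block in the 7 deep libraries, and 0 to 144 when each of the 6 libraries was left out in turn (52 without control 4 and 144 without TO 4). A block by replicate number gave 219 calls in the 6 libraries and 3 in all 8. Same-numbered lungs correlated in their deviations from the group means at 0.0615, 0.247, 0.239 and 0.123 for numbers 1 to 4, and 3 of 4 controls correlated best with their own number, a hint at pairing. The labels name no shared litter, batch or day, and the specimen numbers of the file names are the same for same-numbered lungs. The low correlation of number 1 involves TO 1, with its 270078 read pairs, so it cannot decide whether the numbers are pairs. Pairing was not settled, and the block by replicate number is given as an alternative. Under this block in the 6 libraries the log2 fold change turned to -0.042 for Lck, -1.11 for Rag2 and 0.072 for Tcf7, that of Rag1 became 0.13 (standard error 0.59), and the median of the genes tested was 0.072, and under the block in all 8 libraries Tcf7 was at 0.53 and the median at 3.22. Tcf7 ran from -0.31 without TO 2 to 0.0022 without TO 3 when each library was left out, and it turned to 0.10 in the 7 deep libraries without TO 3 and 0.81 in all 8. Lck turned to -0.035 on the second strand column and was 0.78 on the first, columns that hold parts of the same unstranded reads. The median of 1.41 became 1.83 in the 7 deep libraries, 0.41 in these without TO 3, 4.07 in all 8, 0.36 with 5 reads in every library, 1.94 with every gene with a read, 0.24 in limma-voom, 0.58 with the specimen block, 0.78 and 0.81 on the first and second strand column and 1.88 on both summed. With each library left out it ran from 0.092 without TO 3 to 1.86 without control 2. Filters and library sets change which of the 10 genes enter the median, and further causes were not tested. Summing the strand columns and leaving TO 3 out of the 7 deep libraries were chosen after seeing the data. The sum of strand columns also counts reads in stretches shared with other genes, which cannot be assigned to 1 gene. Depth limits what can be seen, as 8 of the 10 genes had under 5 reads in at least 1 deep library.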

Other observations

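Some receptor and thymocyte genes outside the 10, chosen after their values were seen, had their highest deep level in TO 3. Zap70, the kinase that acts after Lck, was at 3.72 CPM in TO 3 and 0.445 to 1.53 CPM in the other deep libraries, Themis, a thymocyte signalling protein, at 1.57 against 0 to 0.336 CPM, and Ccr9, a homing receptor of thymocytes, at 2.81 against 0.231 to 1.53 CPM. In TO 1 they had 2, 7 and 2 reads. Psmb11, the thymoproteasome subunit gene of cortical thymic epithelium, also chosen after its values were seen, had 0 reads in all 4 controls, 27, 9 and 16 reads in TO 2, 3 and 4 and 9 reads in TO 1. It passed the filter through its TO lungs alone, so that it had to differ, and its adjusted p in the 6 libraries was 0.907 from edgeR.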
